A study of Mus musculus with 26 samples.

Results

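The promoters described here carried more trimethylated lysine 4 of histone H3 (H3K4me3) in mouse embryonic stem (ES) cells than in mouse embryonic fibroblasts (MEFs), and carried little trimethylated lysine 27 (H3K27me3) in either. They were chosen from chromatin immunoprecipitation hybridised to promoter arrays. A promoter's value was the mean log2 ratio of immunoprecipitate over input, with each array's median set to 0, over the probes within 1000 bp of the gene's start. Promoters were kept where the lower of the ES lines exceeded the higher of the MEF lines by at least 0.58 in H3K4me3 and where H3K27me3 was below 0.58 in all 4 lines. Of 15174 promoters, 649 (4.28%) had the H3K4me3 gap, and 210 (1.38%) of the 15174 met both conditions. These 210 members make up the set. Since both marks in E14, V6.5, MEF1 and MEF2 chose the members, those values are given as description and were not tested.

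H3K4me3 is written at promoters by methyltransferases of the Set1 and MLL families and accompanies transcription initiation, above all at promoters rich in CpG dinucleotides. H3K27me3 is written by the Polycomb complex PRC2, and in ES cells it often lies together with H3K4me3 at promoters of developmental regulators. In fibroblasts, promoters of pluripotency and germ-line genes are silent, and DNA methylation, which these arrays do not measure, is a further mark of silent promoters.

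The groups were the ES lines E14 and V6.5, the male line MEF1 and the female line MEF2, with a single induced pluripotent stem (iPS) cell line, each measured once per mark over a pair of arrays that hold different chromosomes. RNA was measured on 2 one-colour arrays each of V6.5 ES cells grown on feeders, female MEFs and iPS cells. The labels name no treatment, no allele and no origin of the iPS line. A line is 1 replicate per mark, and nothing in the labels says that the paired RNA arrays were separate cultures, so p-values for RNA measure the spread between these arrays.

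Sequences of promoters with the widest gaps, and of named members at both ends of the CpG range, are printed to show what kind of DNA the set holds. They are the 250 bases before the RefSeq start (GRCm38.p6), read 5′ to 3′ on the gene's strand, and the capitals mark the array probes that lie in them. The 4 members with the widest gaps among those whose RefSeq promoter sequence held an array probe were Slc9b1 (chr3:135347779-135348028, plus strand), Trap1a (chrX:139333433-139333682, plus strand), Zfp42 (chr8:43307010-43307259, minus strand) and Pramel13 (chr4:144408465-144408714, minus strand).
Slc9b1: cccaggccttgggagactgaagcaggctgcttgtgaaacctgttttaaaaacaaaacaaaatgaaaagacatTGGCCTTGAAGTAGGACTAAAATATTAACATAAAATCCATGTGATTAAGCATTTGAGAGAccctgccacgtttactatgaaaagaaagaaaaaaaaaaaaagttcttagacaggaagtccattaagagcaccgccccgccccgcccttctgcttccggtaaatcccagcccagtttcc
Trap1a: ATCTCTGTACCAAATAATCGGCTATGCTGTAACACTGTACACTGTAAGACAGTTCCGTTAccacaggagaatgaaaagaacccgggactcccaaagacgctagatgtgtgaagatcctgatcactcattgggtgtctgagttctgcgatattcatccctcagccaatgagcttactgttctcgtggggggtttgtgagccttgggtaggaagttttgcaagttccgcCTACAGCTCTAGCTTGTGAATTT
Zfp42: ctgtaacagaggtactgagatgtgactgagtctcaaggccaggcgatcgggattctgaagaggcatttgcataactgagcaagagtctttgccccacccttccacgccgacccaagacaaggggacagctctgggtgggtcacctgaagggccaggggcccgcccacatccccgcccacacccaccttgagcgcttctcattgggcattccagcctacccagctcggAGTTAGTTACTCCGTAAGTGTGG
Pramel13: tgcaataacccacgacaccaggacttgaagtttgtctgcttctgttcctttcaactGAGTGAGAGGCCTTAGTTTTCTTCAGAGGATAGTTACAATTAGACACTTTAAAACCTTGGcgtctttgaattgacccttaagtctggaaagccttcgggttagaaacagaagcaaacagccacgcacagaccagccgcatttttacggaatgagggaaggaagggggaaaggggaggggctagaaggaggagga

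The probe in the printed Slc9b1 promoter read 2.54 in E14 and 2.74 in V6.5 for H3K4me3, against -0.81 in MEF1 and -0.74 in MEF2, and 2.50 in iPS cells. The upstream probe of Trap1a read 2.21, 2.33, 0.01, -0.54 and 2.28 in the same order. At both probes the iPS value lay with the ES lines and the MEF values lay near or below the array median. The partly printed Zfp42 probe next to the start had a smaller difference, with 2.11 and 1.78 in the ES lines, 0.72 and 0.55 in the MEF lines, and 0.61 in iPS cells, so its iPS reading lay with the MEF lines although the promoter's mean did not.

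Among the other named members, Marveld2 (chr13:100616972-100617221, minus strand) and D1Pas1 (chr1:186967166-186967415, plus strand) had the highest CpG observed over expected ratio, 0.82 and 0.71 over the 300-base window around the start. Rinl (chr7:28788719-28788968, plus strand) and Tfpi (chr2:84474175-84474424, minus strand) had the lowest, 0.13 and 0.15. The windows of Marveld2 and D1Pas1 held 18 and 15 CpG dinucleotides, and those of Rinl and Tfpi held 3 each.
Marveld2: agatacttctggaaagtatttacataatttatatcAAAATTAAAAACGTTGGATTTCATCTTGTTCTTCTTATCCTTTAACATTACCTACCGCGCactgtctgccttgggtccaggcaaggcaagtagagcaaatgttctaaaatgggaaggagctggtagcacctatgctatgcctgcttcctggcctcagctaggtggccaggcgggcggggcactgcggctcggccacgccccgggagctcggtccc
D1Pas1: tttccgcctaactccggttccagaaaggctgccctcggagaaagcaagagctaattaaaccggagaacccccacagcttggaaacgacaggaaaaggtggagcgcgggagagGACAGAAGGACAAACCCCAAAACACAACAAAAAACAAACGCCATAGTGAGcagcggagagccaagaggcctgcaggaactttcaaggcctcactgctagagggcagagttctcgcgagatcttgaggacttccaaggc
Rinl: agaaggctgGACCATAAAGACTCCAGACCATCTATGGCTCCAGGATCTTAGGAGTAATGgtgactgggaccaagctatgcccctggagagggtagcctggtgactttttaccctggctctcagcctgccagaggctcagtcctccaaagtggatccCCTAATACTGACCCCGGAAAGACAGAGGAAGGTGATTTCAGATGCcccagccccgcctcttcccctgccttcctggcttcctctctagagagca
Tfpi: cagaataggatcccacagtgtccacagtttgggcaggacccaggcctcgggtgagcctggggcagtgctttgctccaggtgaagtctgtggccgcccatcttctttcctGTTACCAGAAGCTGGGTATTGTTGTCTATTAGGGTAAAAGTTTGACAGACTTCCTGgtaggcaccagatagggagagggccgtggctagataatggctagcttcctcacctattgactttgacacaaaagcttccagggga

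The Tfpi sequence, with few CpG, carried H3K4me3 in ES cells. At the Tfpi probe H3K4me3 read 1.83 in E14 and 1.69 in V6.5, 0.66 in each MEF line and 1.60 in iPS cells. At the upstream Rinl probe it read 0.39 and 0.75, -0.57 and -1.12, and -0.17 in the same order, so the ES signal there was weak and the iPS value lay below the array median. The D1Pas1 probe read -0.15 and -0.06 in the ES lines, -0.52 and -0.13 in the MEF lines and 0.51 in iPS cells, with no ES signal at that position. The Marveld2 probe read 2.05 in each ES line, 0.61 in MEF1, 0.31 in MEF2 and 2.28 in iPS cells.

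Sequence content was computed for the 119 members whose RefSeq window held at least 1 array probe of that promoter, which was 56.7% of the set. Their median CpG observed over expected ratio was 0.30 (quartiles 0.19 and 0.46), and over the 10131 array promoters with such a window it was 0.68 (quartiles 0.33 and 0.86). A ratio below 0.48 was found in 95 of the 119 members (79.8%), against 33.8% of all promoters, and a ratio above 0.75 in 4 members (3.36%), against 40.4%. The 439 promoters that had the H3K4me3 gap but reached 0.58 for H3K27me3 in at least 1 line had a median ratio of 0.49, with 48.6% below 0.48. The 191 promoters with the opposite gap, higher in both MEF lines, and H3K27me3 below 0.58 had a median of 0.27, with 81.8% below 0.48. The members' CpG content thus lay beside that of promoters that gained the mark in MEFs and below that of promoters with H3K27me3, and no test of these differences was made.

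**Figure D1:**
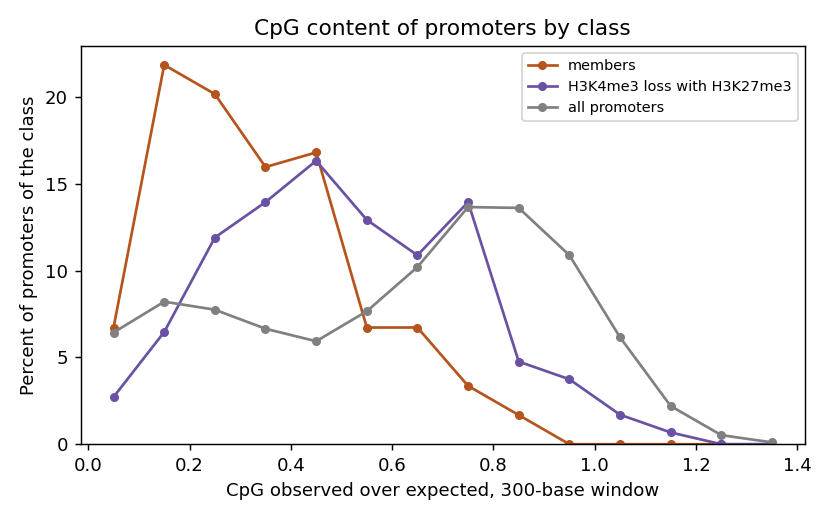
CpG observed over expected ratio (x axis) in 300-base windows around the RefSeq start, as percent of the promoters of each class (y axis), in bins of 0.1, for members, for promoters with the same H3K4me3 gap and H3K27me3, and for all promoters with a window. Members lie to the left, with 79.8% below 0.48, and all promoters peak to the right.

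Short motifs were looked up on both strands of the same windows. The TATA box letters TATAAA were present in 18.5% of members and 11.2% of all promoters, the GC box GGGCGG in 33.6% and 54.3%, and the letters CCAAT in 37.8% and 38.8%. The octamer ATGCAAAT, which Oct4 binds, was in 6 of the 119 members (5.04%) and in 1.64% of all promoters. Those 6 were Zfp42, Plet1, Liph, Elf3, Tspan8 and Padi3, and in the Zfp42 sequence above it reads atttgcat on the printed strand. CACCC, a core of Krueppel-like factor sites, was in 74.8% and 61.6%. Each match is a description of these letters in this window only.

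The H3K4me3 values of the 210 members had medians of 0.77 in E14, 0.86 in V6.5, -0.30 in MEF1 and -0.50 in MEF2. Both MEF lines lay below the array median at 157 members, and both ES lines reached 1 at 74. At 83 members at least 1 ES line was below 0.58, so the gap there came from a weak ES signal over MEF values below the median. Only 18 members kept 0.58 or more in a MEF line, among them Zfp57 with 1.30 and 1.61 and Zscan10 with 1.01 and 1.06. The gap had a median of 0.90, reached 1 at 83 members and 2 at 7. The median difference between the ES lines at a member was 0.19 and between the MEF lines 0.20, in lines whose values chose the members. At some members the lines lay much farther apart. E14 and V6.5 read 1.36 and 2.43 at Cyct, and 2.10 and 0.93 at BC038156.

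**Figure D2:**
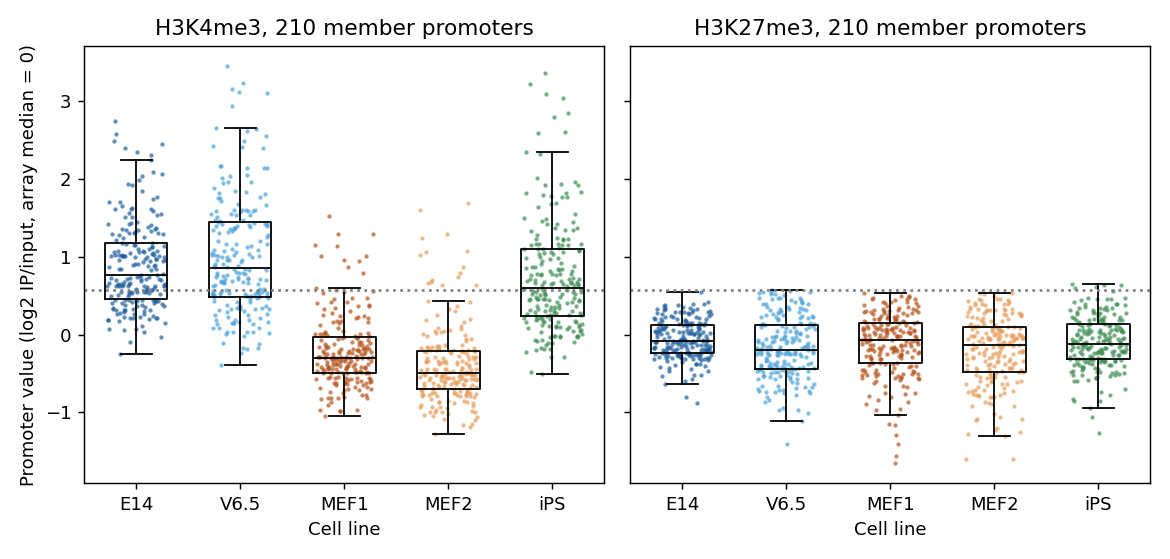
Promoter values (y axis, log2 ratio of immunoprecipitate over input, array median at 0) of the 210 members in each line (x axis), for H3K4me3 on the left and H3K27me3 on the right. Points are promoters, boxes give the quartiles and the median, whiskers reach the last point within 1.5 box lengths, and the dotted line marks 0.58. The iPS line, which the rule did not use, has an H3K4me3 median of 0.60 and an H3K27me3 median of -0.11.

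H3K27me3 medians of the members were -0.09 in E14, -0.19 in V6.5, -0.07 in MEF1 and -0.13 in MEF2. Their highest values were held below 0.58 by the rule. The E14 H3K27me3 arrays had a median absolute deviation of 0.29, against 0.42 to 0.71 on the other arrays of that mark, so the limit was less strict there, and its part in the membership was not tested. Of the 439 promoters with H3K27me3, 332 reached 0.58 in both MEF lines and 155 reached it in a MEF line but in no ES line.

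Around the start, the members' H3K4me3 in ES cells formed a peak downstream of it. In bins of 500 bp the median was 0.97 in E14 and 0.99 in V6.5 between 500 and 1000 bp into the gene, and 0.52 and 0.55 at the same distance upstream. It declined to -0.02 and -0.14 in the bin centred 2250 bp upstream. Over all bins within 3000 bp of the start, the highest median was -0.16 in MEF1 and -0.42 in MEF2. The MEF lines thus had no peak outside the window that chose the members either. The last downstream bin held 48 members and every other bin 159 or more.

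**Figure D3:**
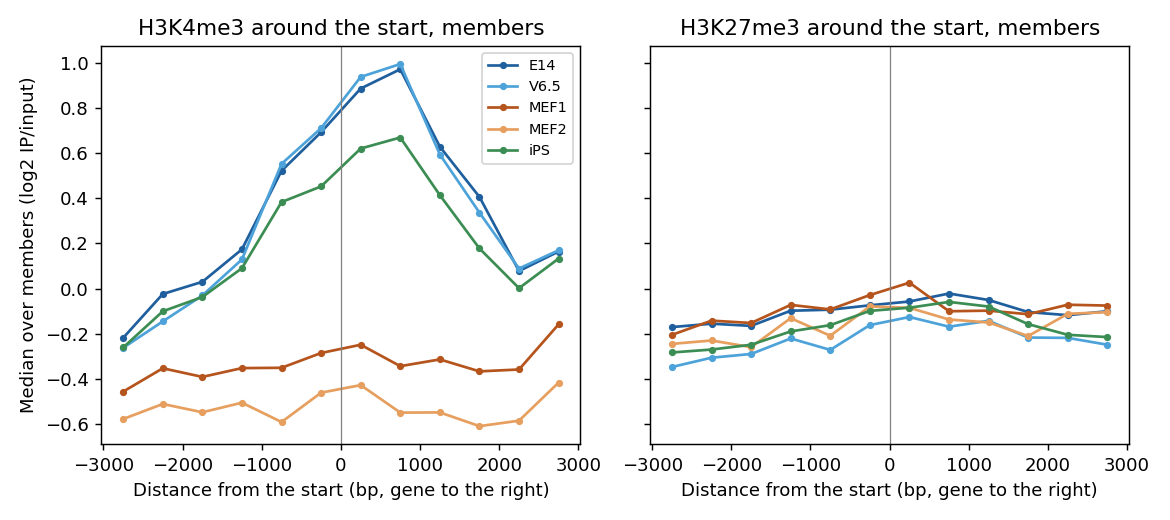
Median H3K4me3 (left) and H3K27me3 (right) of the members (y axis, log2 ratio of immunoprecipitate over input) by distance from the start (x axis, bp, in bins of 500, gene body to the right), 1 line per cell line. H3K4me3 peaks just downstream of the start in E14, V6.5 and iPS cells and has no peak in MEF1 or MEF2.

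At the edge of the rule, Fitm1, Padi3 and Pknox1 entered with gaps of 0.5813, 0.5816 and 0.5825. Scarf1, Arhgef38 and Pxt1 were left out with 0.5779, 0.5776 and 0.5758. For H3K27me3, Gltpd2, Oprk1 and Piwil2 entered with highest values of 0.571, 0.558 and 0.553, while Cryga, 2610208M17Rik and Oprm1, at 0.585, 0.585 and 0.586, were left out. In all 6 of these cases the highest H3K27me3 was that of V6.5.

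The members lay on 20 chromosomes, with 25 of them on chromosome 7 (1.98% of its 1265 promoters) and 7 on the X chromosome (1.31% of 533). The highest share was that of chromosome 14, with 12 of 532 promoters (2.26%), and 1.38% of all promoters were members. A head-to-head neighbour was found for 19 members (9.05%, against 18.4% of all promoters), and 17 of these neighbours were measured. Of these, 1 neighbour, Mobp, shared the gap, which 4.28% of all promoters had, and 11 held 0.58 or more in both MEF lines, as did 59.1% of all promoters, so both counts were near the background. Cyct and its neighbour Rbm45, whose start lies 9558 bp away, had gaps of 2.10 and -0.55, so the loss was not shared between these adjoining promoters. Apoc1 and Apoe, both members 6682 bp apart, encode apolipoproteins and had gaps of 1.71 and 1.05.

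MicroRNA genes accounted for 5 members, and across all promoters 1.38% were members. The number of microRNA promoters on the arrays is not given here, so the count cannot be read as particular to microRNAs. Of the 5, miR-200c and miR-141 lie 434 bp apart and form a cluster known for holding cells in an epithelial state. Mature forms are printed with the seed, bases 2 to 8, in capitals, from RefSeq.
mmu-miR-200c-3p: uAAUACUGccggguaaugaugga
mmu-miR-141-3p: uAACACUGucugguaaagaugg
mmu-let-7g-5p: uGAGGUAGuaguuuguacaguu
mmu-miR-32-5p: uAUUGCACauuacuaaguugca
The seeds AAUACUG and AACACUG of miR-200c and miR-141 differ, as do those of the other microRNAs shown. H3K4me3 at mmu-mir-200c was 1.00 in E14, 1.67 in V6.5, -0.31 in MEF1, -0.20 in MEF2 and 0.71 in iPS cells. At Mir141, 434 bp away and read largely from the same probes, it was 0.88, 1.45, -0.36, -0.19 and 0.67. The cluster was marked in the 3 pluripotent lines and not in the MEF lines. H3K4me3 at Mirlet7g was 1.77, 1.35, -0.06, 0.08 and 1.16, and at Mir32 0.55, 0.52, -0.70, -0.76 and 0.05, so the iPS value of Mir32 was nearer the array median than the ES lines. Mir145a was the other, and its values are not given here. The RNA arrays held no probe for any of them by name.

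The iPS line carried H3K4me3 at the members at levels between the ES and MEF lines or in the ES range. Its median was 0.60, and 152 of the 210 members lay at least 0.58 above the higher MEF line, against 5.19% of all promoters. All 210 lay above the higher MEF line (37.5% of all promoters), 73 reached the lower ES line (67.8%), and 108 reached 0.58 (62.5%). The MEF side of these counts was selected to be low and the ES side to be high, so they carry no test, and the single iPS line has no replicate. On a scale where the MEF mean is 0 and the ES mean is 100, the members' median iPS position was 81.1, and that of the promoters with H3K27me3 was 85.5. It was 81.6 for the promoters with the opposite gap. Over all promoters, of which 4.28% had the members' gap, it was 93.1. The scale has little meaning where ES and MEF means are close, so 93.1 cannot be compared with the other values. Since the rule chose high ES values, the distance of the iPS line below them was not tested. Across the 210 members the iPS value and the ES mean had a Pearson correlation of 0.92, as a description over promoters read on the same arrays.

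**Figure D4:**
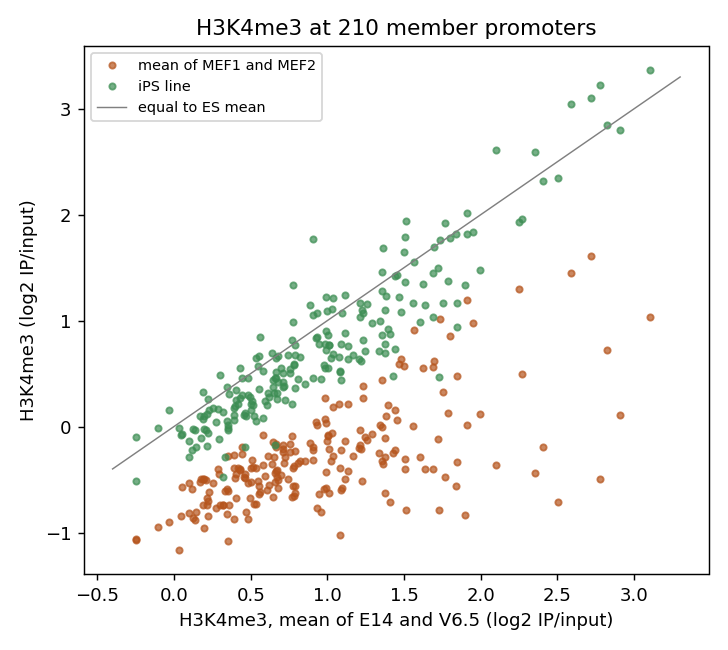
H3K4me3 of the 210 members in the iPS line (green) and as the mean of the MEF lines (orange) on the y axis, against the mean of the ES lines on the x axis (both log2 ratio of immunoprecipitate over input). The grey line marks equality with the ES mean, and the iPS values follow it somewhat below, with a median position of 81.1 on the scale from MEF to ES.

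The members farthest below the ES lines in iPS cells were Plet1, Fgd4, Rinl, Tmc4, Bnipl and Tmem116. Plet1, a placenta-expressed surface protein, had H3K4me3 of 1.43 in E14, 2.02 in V6.5, -0.54 in MEF1, -1.02 in MEF2 and 0.47 in iPS cells. Fgd4, an exchange factor for Cdc42, had 1.25, 1.60, -0.05, -0.46 and 0.48. Both lay between the ES and the MEF lines. Tmc4, with 0.21, 0.43, -0.75, -0.72 and -0.48, lay nearer the MEF lines. In all, 7 members lay 0.58 or more below the lower ES line.

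Members farthest above the higher ES line were Fmr1nb, Sh2d4b, Glra2 and Cul4b, and 3 of these 4 are on the X chromosome. Fmr1nb, an antigen of testis and tumours, had 0.97 in E14, 0.85 in V6.5, -0.04 in MEF1, -0.34 in MEF2 and 1.77 in iPS cells. Cul4b, the scaffold of a ubiquitin ligase, had 1.30, 1.43, -0.20, -0.51 and 1.69, and Glra2, a glycine receptor subunit, 0.54, 0.57, -0.36, -0.87 and 0.84. Trap1a, with 3.23 in iPS cells against 2.45 and 3.103, and Pof1b, with 0.33 against 0.23 and 0.15, are X-linked too and also exceeded the ES lines. Ldoc1 lay between the ES lines at 0.69, and Ccdc120 lay below them at 0.24. Of the X-linked members, 5 of 7 thus lay above the higher ES line in iPS cells, against 25 of all 210 members (11.9%) and 23.7% of all promoters, a difference that was not tested. The 25 include these 5. The share over all X-linked promoters is not given here, so the count cannot be read as particular to the members. Scan day differed between the lines and cannot be told apart from them.

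H3K27me3 in iPS cells, which the rule did not use, was below 0.58 at 205 of the 210 members (97.6%), against 79.8% of all promoters and 35.3% of the promoters with the gap and H3K27me3. The 4 highest were Marveld2 with 0.66, Ptprr with 0.64, Rnf186 with 0.63 and Fstl5 with 0.61, barely past the limit. Members were chosen for low H3K27me3 in lines whose values resemble these, so the count has no test.

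RNA was not used by the rule and was tested with limma over 17300 genes. More members had lower than higher RNA in MEFs than in ES cells. Genes were called where the change was at least 2-fold and the p adjusted over all genes (Benjamini-Hochberg) was under 0.05. Of the 210 members, 193 had a probe by name, and 152 of these passed the filter of being well above background on both arrays of a group. RNA was lower in MEFs for 60 of the 152, where 17.5% of all genes tested were called lower, and higher for 4, where 15.7% were called higher. The median difference, MEF minus ES, was -1.95 log2 over the 152 and -0.10 over all genes. Of the 152, 77 were not above background on both MEF arrays, 12 of them on neither, and so passed the filter only through ES or iPS cells, where they were high. Their direction was largely set by the filter, and 27 of the 60 lower calls were among them, so the counts over the 152 are a description. With the iPS duplicate given the flags of the first iPS array, here and below, the other 75 were well above background on all 6 arrays. Of these, 33 were lower in MEFs and 4 higher, next to 19.3% lower and 13.6% higher of the genes on the promoter arrays that met the same condition.

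The 60 calls became 36 and 37 when the first or the second ES array was left out, where 5.94% and 5.80% of all genes were called lower, and 95 without the second MEF array, where 26.8% were. That array had 86.7% of its probes well above background, against 46.5% on the first MEF array, and the 2 MEF arrays correlated at 0.869. At 65 of the 152 members the second MEF array was above background and the first was not. Less RNA per cell and fewer expressing cells cannot be told apart in these bulk samples. The deposited table and the scanner files name ES and MEF arrays the other way round. The table was followed, with its ES columns high in Pou5f1 (4.88 and 4.57, against -4.65 and -0.63 in MEFs), and under the scanner files' names the direction turns.

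Promoters with the gap and H3K27me3 had 96 of 268 tested genes lower in MEFs (35.8%) and 13 higher, next to 39.5% of the tested members lower. Of the 268, 204 were not above background on both MEF arrays, which held for 77 of the 152 members. Among genes above background on all 6 arrays, 16 of 54 (29.6%) were lower and 4 higher. For the members these counts were 33 of 75 (44%) and 4, and the difference was not tested. Promoters with the opposite H3K4me3 gap had 104 of 144 genes higher in MEFs and 2 lower, next to 15.7% and 17.5% of all genes tested. Of the 144, 94 were above background on all 6 arrays, and among these 64 were higher and 2 lower. Passing the filter through MEFs could set the direction of others, so the count of 104 is a description. By size of the gap, with no test of the difference, 34 of the 64 tested members with a gap of at least 1 were lower in MEFs. Of the 88 tested members with a smaller gap, 26 were. Members whose ES lines both reached 1 had 38 of 65 lower, and those with an ES line below 0.58 had 10 of 51. Both splits include members whose direction was largely set by the filter, so they are a description. Over the 152 members the gap and the RNA difference had a Spearman correlation of -0.23, given as a description.

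Across all promoters 1.38% were members, and 17.5% of all genes tested were lower in MEFs. These shares are the background for each gene list. RNA counts over whole lists were not limited to genes above background in MEFs. The filter may have set part of their direction, so they are a description. The pluripotency list is described first. Of its 45 genes, 38 were on the promoter arrays, 19 had the gap and 5 (13.2% of the 38) were members, namely Zfp42, Dppa4, Zscan10, Tex19.1 and Tcl1. All 5 had lower RNA in MEFs, and over the whole list 29 of 36 tested genes did, with none higher. Of the 5, Zscan10 was above background on both MEF arrays, and the other 4 passed the filter only through ES and iPS cells. The others with the gap carried H3K27me3 in some line, among them Pou5f1 and Sox2.

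Zfp42, also called Rex1, is a zinc finger protein and a marker of the pluripotent state. Its H3K4me3 was 2.58 in E14, 3.23 in V6.5, 0.15 in MEF1, 0.06 in MEF2 and 2.80 in iPS cells. On the scale of log2 signal minus the array's 75th percentile, its RNA was 5.38 and 5.66 in ES cells, -4.97 and -1.45 in MEFs and 6.09 and 5.94 in iPS cells. The ES and iPS arrays were high, the MEF arrays did not overlap them, and the first MEF array was not well above background. The fitted difference was -8.73 ± 1.04 (SE, n = 2 arrays a group, limma adjusted p = 0.00187).

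Tex19.1, a protein of germ cells and ES cells, had H3K4me3 of 1.02, 0.96, -0.58, -0.58 and 1.23 in E14, V6.5, MEF1, MEF2 and iPS cells. Its RNA was 4.75 and 4.51 in ES cells and 6.15 and 5.91 in iPS cells, and it was not well above background on either MEF array. It was at least 307-fold lower in MEFs than in ES cells (limma adjusted p = 0.000756). Tex19.1, like Trap1a, Elf3, Pramel13, Rnf125 and Ell3 below, was above background on no MEF array and entered the test only through ES and iPS cells, so its p gives no independent support for the direction. Zfp42, Dppa4, Tcl1, Cyct, Tdrd12, Slc9b1 and Marveld2 were above background on only 1 MEF array. They entered the test in the same way, so the same holds for their p. A fold given as "at least" sets the bright group's mean against the lowest signal well above background in the dim group, or the probe's own value where that is higher.

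Dppa4, a DNA-binding protein of pluripotent cells, had H3K4me3 of 2.07, 2.65, -0.28, -0.61 and 2.59. Its RNA was 4.37 and 3.80 in ES cells, -5.51 and -1.83 in MEFs and 3.53 and 3.40 in iPS cells (MEF minus ES -7.76 ± 1.09, SE, limma adjusted p = 0.00311). Zscan10, a transcription factor of ES cells, had H3K4me3 of 2.75, 3.46, 1.01, 1.06 and 3.37. Both MEF lines thus kept a level of the mark above 1 at Zscan10 and lay near or below the median at Dppa4. Its RNA was 3.84 and 4.46 in ES cells, -1.95 and -0.69 in MEFs and 2.75 and 2.71 in iPS cells (difference -5.47 ± 0.54, SE, limma adjusted p = 0.00119). Tcl1, a coactivator of the kinase Akt, had H3K4me3 of 1.18, 1.84, -0.21, -0.58 and 1.79 and an RNA difference of -3.74.

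Chromatin regulators with a role in DNA methylation or Polycomb repression gave 3 members among 32 genes on the arrays (9.38%). All 3 had lower RNA in MEFs, and over the whole list 25 of 32 tested genes did, with 1 higher. Dnmt3l, the inactive partner of the de novo DNA methyltransferases, had H3K4me3 of 1.99, 1.54, -0.43, -0.52 and 1.92. Its RNA was 5.93 and 5.54 in ES cells, -0.90 and -1.14 in MEFs and 4.77 and 4.82 in iPS cells, and was above background on every array. This was a difference of -6.76 ± 0.39 (SE, limma adjusted p = 0.000756), with no overlap between MEF and ES arrays.

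Phc1, a subunit of the Polycomb complex PRC1, had H3K4me3 of 2.49, 3.16, 0.37, 1.08 and 2.85, and RNA that was 4.91 log2 units lower in MEFs (30.1-fold, limma adjusted p = 0.00119). Zfp57, which protects methylated imprints, kept the mark in MEFs, as given above, with 2.25 and 2.93 in ES cells and 3.04 in iPS cells. Its RNA was 2.11 and 1.69 in ES cells, -1.44 and -0.47 in MEFs and -0.71 and -0.38 in iPS cells. The iPS RNA of Zfp57 thus lay with the MEF arrays while its iPS H3K4me3 lay with the ES lines. It was lower in MEFs than in ES cells (limma adjusted p = 0.0061), and the iPS to ES difference of -2.44 did not pass (limma adjusted p = 0.107).

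Germ-line genes gave 8 members of 62 on the arrays (12.9%), and 2 of the 7 tested, Trap1a and Cyct, had lower RNA in MEFs. Over the whole list 16 of 51 tested genes were lower and 3 higher. Trap1a, which encodes a tumour-rejection antigen, was the member with the second widest gap, with H3K4me3 of 2.45, 3.103, -0.29, -0.70 and 3.23. Its RNA was 2.90 and 2.98 in ES cells and 4.69 on each iPS array, not above background in MEFs, and at least 99.6-fold lower there than in ES cells (limma adjusted p = 0.000756). Cyct, the testis form of cytochrome c, had H3K4me3 of 1.36, 2.43, -0.74, -0.93 and 1.34, and RNA of 3.07 and 3.58 in ES cells, -5.50 and -2.44 in MEFs and 0.72 and 0.53 in iPS cells.

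The other germ-line members did not pass the test. Rnf17, a Tudor protein of germ cells, had an RNA difference of -3.60 ± 1.17 (SE, limma adjusted p = 0.0557). Sycp3, of the synaptonemal complex, had -3.23 ± 1.25 (limma adjusted p = 0.0923), and Piwil2, which binds piRNAs, -2.98 ± 1.54. For these 3 the first MEF array read between -5.55 and -5.06 and the second between -1.59 and -0.02, so the MEF arrays differed by more than 3 log2 units. Zp3, an egg coat protein, had -1.81, and D1Pas1, a testis helicase, -0.58. Dpep3 did not pass the filter. Tdrd12, another piRNA pathway gene and not on the list, had RNA of 2.34 and 2.76 in ES cells, -5.55 and -1.91 in MEFs and 3.52 and 3.46 in iPS cells (limma adjusted p = 0.00635).

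Epithelial genes gave 4 members of 41 on the arrays (9.76%), and 3 of them, Elf3, Marveld2 and Pkp3, had lower RNA in MEFs. Over the whole list 22 of 39 tested genes were lower and 0 higher, so the lower RNA of its members cannot be read as particular to them. Elf3, an epithelial ETS factor, had H3K4me3 of 1.13, 1.56, 0.26, -0.22 and 0.99, and its RNA was at least 30.5-fold lower in MEFs (1.34 and 1.13 in ES cells, limma adjusted p = 0.000756). Marveld2, or tricellulin, and Pkp3, a desmosome plakophilin, had RNA differences of -3.54 and -4.74. Prss8, a membrane protease, had a gap of 1.17 and an RNA difference of -1.56 that did not pass (limma adjusted p = 0.299). Another 17 genes of this list had the gap with H3K27me3, among them Cdh1 and Krt8.

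Of the other lists, amino acid and sugar metabolism gave 1 member of 36 on the arrays, signalling 2 of 43, blood 1 of 14, and cell cycle, imprinted and fibroblast genes none. Amt, of the glycine cleavage system, had H3K4me3 of 1.63, 2.05, -0.62, -0.50 and 1.82 and no RNA probe by name. Il23a, a cytokine subunit, had H3K4me3 of 0.70, 0.62, -0.42, -0.46 and 0.46, and an RNA difference of -0.98 that did not pass. Cd68, a macrophage lysosomal protein, had 1.18, 1.28, 0.23, 0.31 and 0.82, and RNA between -0.23 and 0.65 on all 6 arrays, which overlapped. The 5 macrophage and blood markers summed to 6.65 and 5.85 in MEFs against 1.72 and 1.85 in ES cells. Most of the MEF sum was Lyz2, at 6.61 and 5.78; Ptprc and Csf1r were also higher in MEFs, Laptm5 was lower (-1.64, limma adjusted p = 0.0301), and Cd68 did not pass the test. The part of such cells in the MEF values was not tested.

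Slc9b1, a sodium-proton exchanger of sperm, had the widest gap, with H3K4me3 of 2.35, 2.66, -0.67, -0.76 and 2.35. Its RNA was -0.76 and 0.19 in ES cells, -5.01 and -2.59 in MEFs and 0.08 and 0.09 in iPS cells (MEF minus ES -3.51 ± 0.81, SE, limma adjusted p = 0.0182). Pramel13, of the PRAME family, had a gap of 2.23, read from 3 probes, and RNA at least 18.2-fold lower in MEFs. Rnf125, a ubiquitin ligase, had a gap of 1.95 and RNA at least 10.9-fold lower. Slc39a4, a zinc importer, and Ell3, an elongation factor, also lay among the 10 largest calls, at 58.3-fold and at least 15.3-fold lower. Lrmp and 1300017J02Rik had gaps of 1.92 and 1.90 without an RNA call, at -0.65 ± 0.46 (limma adjusted p = 0.319) and -2.02 ± 0.85 (limma adjusted p = 0.114).

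The 4 members with higher RNA in MEFs went against their H3K4me3. Lifr, the receptor for leukaemia inhibitory factor, had H3K4me3 of 0.63, 0.42, -0.60, -0.87 and 0.10. Its RNA was -3.48 and -2.94 in ES cells, 1.62 and 0.28 in MEFs and -3.63 on each iPS array, 17.9-fold higher in MEFs than in ES cells (limma adjusted p = 0.00246). The arrays of MEFs and ES cells did not overlap.

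Serping1, the C1 inhibitor, had H3K4me3 of 1.01, 1.00, 0.21, -0.37 and 0.55, and RNA of -1.004 and -1.78 in ES cells and 2.72 and 2.57 in MEFs (16.4-fold, limma adjusted p = 0.00143). Tfpi, an inhibitor of coagulation, and Slc44a2, a choline transporter-like protein, were 4.55-fold and 2.72-fold higher in MEFs. The count of 4 became 26 without the first MEF array, where 28.1% of all genes were called higher, and 2 without either ES array, where 8.13% and 9.59% were. Transcripts from other starts were not examined.

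**Figure D5:**
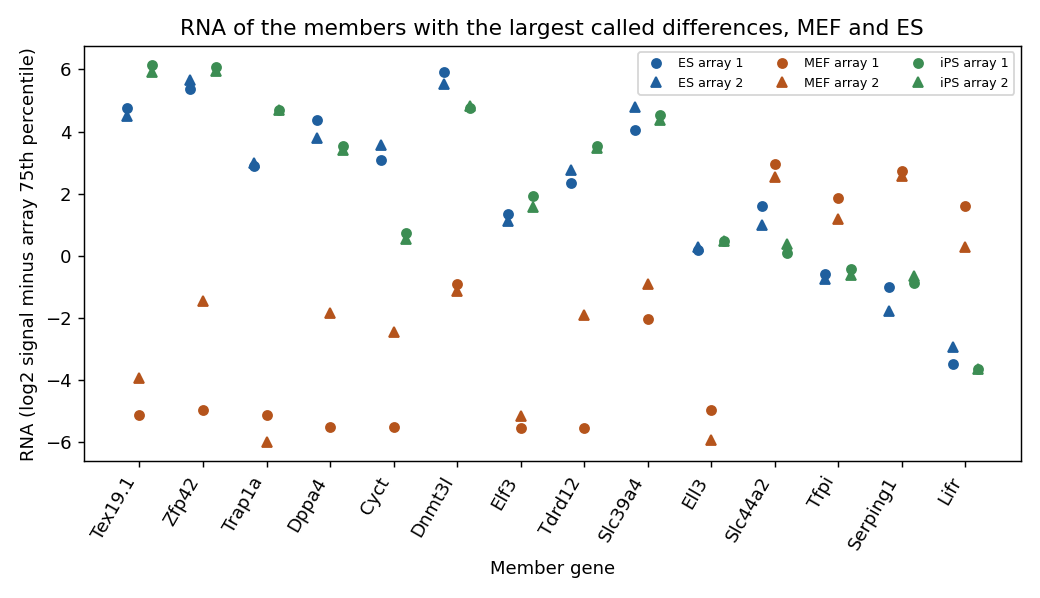
RNA (y axis, log2 signal minus the array's 75th percentile) on each of the 6 arrays for the members with the largest called differences between MEFs and ES cells (x axis, ordered by the difference); circles are first arrays and triangles second arrays. The 10 genes on the left are lower in MEFs and the 4 on the right higher, and the iPS arrays lie on the ES side.

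In iPS cells compared with MEFs, more members had higher than lower RNA. Of the 152 tested, 58 were higher, where 17.9% of all genes were called higher, and 7 were lower, where 16.9% were. This comparison shares the MEF arrays with the one above, and 52 members were called lower in MEFs against ES cells and higher in iPS cells against MEFs. Of the 58, 30 were among the 77 members that passed the filter only through ES or iPS cells. Of the 75 above background on all 6 arrays, 28 were higher and 7 lower in iPS cells, next to 19.5% and 15.3% of the genes on the promoter arrays that met the same condition. Without the second MEF array 100 of the 152 were higher in iPS cells, where 28.2% of all genes were. The 7 lower members were Slc44a2, Lifr, Tmc4, Tfpi, Serping1, Hs3st1 and Camkk2, and their number was 24 without the first MEF array, where 28.03% of all genes were called lower, and 3 without either iPS array, where 9.21% and 8.89% were.

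Between iPS and ES cells 0 of the 152 members were called with limma, where 0.0867% of all genes were called higher and 0.0636% lower. At an unadjusted p under 0.05 there were 25 members (16.4%), next to 14.7% of the tested genes on the promoter arrays. With a fit of those 2 groups alone, or without either MEF array, 26 members were called, where 15.7% of all genes were, so this share was near the background. The smallest adjusted p was that of Hs3st1, a heparan sulfate sulfotransferase, at -3.05 (limma adjusted p = 0.0963), and the widest difference that of Ccdc172 at 3.99 (limma adjusted p = 0.187). The paired arrays correlated at 0.973 in ES cells and 0.991 in iPS cells, above the 0.869 of the MEF arrays that share the fit.

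On the RNA arrays, 6 of 6 ES markers were measured, and their summed level was 7.48 and 7.40 in ES cells, 7.53 and 7.44 in iPS cells, and -2.19 and 0.22 in MEFs. The 6 fibroblast markers summed to 9.58 and 8.57 in MEFs, 5.80 and 6.16 in ES cells grown on feeders, and 4.23 and 4.02 in iPS cells. None of the 6 was below background in ES cells, and the part of feeder RNA in the ES values was not tested. On the promoter arrays, between 93.57% and 99.96% of spots were well above background. The lowest share was that of the Cy3 channel on the first iPS H3K4me3 array. Over its probes the iPS line correlated at 0.912 with E14 and 0.91 with V6.5, against 0.944 and 0.96 on the second array. The part of this in the iPS values was not tested. The number of lines and arrays limits the precision.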

How the data were processed

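Chromatin immunoprecipitates were hybridised against input on 20 promoter arrays, and RNA on 6 one-colour arrays. The deposited scanner files give processed intensity per spot from Agilent Feature Extraction 9.1.3.1 (promoter, background-subtracted and dye-normalised) and 9.5.1.1 (RNA), per the file headers. The deposited promoter value tables give red against green as a log10 ratio. For H3K27me3 in MEFs, the protocol text has the immunoprecipitate in Cy3 and the label field has it in Cy5. The field was followed. Read so, the MEF lines correlated positively over probes with E14, V6.5 and iPS cells in H3K27me3, at 0.607 to 0.702.

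From these, log2 of Cy5 over Cy3 was centred on each array's median. A start was the midpoint between the nearest promoter and inside probes, at most 1000 bp apart, with 3 or more probes in the window. Array coordinates have a build not given in the sources used here, so sequences were matched by symbol and probe to RefSeq (GRCm38.p6).

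RNA was log2 of the deposited intensity minus each array's 75th percentile, with the brightest probe per gene, fitted with limma 3.58.1 in R 4.3.3 (lmFit, eBayes, Benjamini-Hochberg) over 6 arrays. The iPS duplicate's scanner file has 28350 of 45018 spots and matched no column, so its detection flags came from the other iPS array. The fit was tested on simulated data.

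The members and the gene lists were chosen with earlier results of these data known. Genes were named by fixed ranks: widest gaps, largest RNA calls, list members, iPS values farthest from the ES lines, X-linked members and those nearest the thresholds. Apoc1, Apoe, Ccdc120, Ccdc172, Dpep3, Mobp, Rbm45, the microRNAs, the genes with an octamer and those lower in iPS cells than in MEFs were added after their values were seen. Alternatives are in the closing section.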

Additional observations from a re-analysis of the deposited data

How the results depend on the processing

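The number of members, 210 in the report, was 135 with normexp background correction, of which 115 were among the 210, 83 with a gap of at least 1 and 344 with H3K27me3 below 1. Leaving out 1 of the 4 lines gave 246 to 418: 418 without E14, 340 without V6.5, 403 without MEF1 and 246 without MEF2. A window of 500 bp gave 208 members, 153 of them shared, and the probe median 228, 162 of them shared. The iPS count of 152 was 91 with normexp and 125 to 152 otherwise, and leaving out spots flagged by the scanner software, an alternative chosen after seeing the data, left 210 and 152.

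For RNA, normexp, over 5 arrays, gave 8 members higher in MEFs, 4 different between iPS and ES cells and a median difference of -1.01. Without a filter on dim probes that median was -0.90 over 193 members. Leaving out an array gave 36 to 95 members lower in MEFs, 2 to 26 higher, medians of -2.51 to -1.04 (the latter without the first MEF array), 42 to 100 higher and 3 to 24 lower in iPS cells than in MEFs, and 0 to 26 different between iPS and ES cells. Fitting iPS and ES cells alone gave 26. Under the scanner files' own names, 5 members were lower and 69 higher in MEFs, with a median of 2.17, 0 higher and 0 lower in iPS cells than in MEFs, and 59 different between iPS and ES cells.

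Slide numbers did not pair the arrays: deviations of the first arrays of 2 groups correlated at -0.11 to 0.025. With slide as a replicate block, 68 members were lower in MEFs and 7 higher, 69 were higher and 10 lower in iPS cells than in MEFs, 0 differed between iPS and ES cells, and the median stayed at -1.95.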
